A study of Caenorhabditis elegans with 9 samples.

Results

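The col genes of Caenorhabditis elegans form the largest group of cuticle collagen genes in the worm. Of 156 protein-coding genes whose name is col followed by a number, 151 are described here. The other 5 (col-8, col-19, col-119, col-140 and col-143) were set apart for their large fall in the high-fat group of these same data. An FPKM (fragments per kilobase of gene, scaled for library size) of at least 1 in at least 3 of 9 libraries was reached by 132 of the 151 genes, and these were tested among 14730 genes in all. RNA came from whole worms in 3 groups with 3 libraries each. OP was the control group, HFD was a high-fat group (citrate-induced, per the title of the series), and FA was the high-fat condition with added farrerol, a plant flavonoid. The sources used here do not give strain, age at harvest or doses. The control columns carry the name of the food bacterium OP50 and were matched to the OP samples by their replicate number, so that all control values rest on that match.

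The cuticle is an extracellular matrix that the epidermis (hypodermis) secretes anew at every larval stage, with a moult between stages. Its collagens are short proteins with interrupted Gly-X-Y repeats that assemble into trimers, are trimmed by proteases and are crosslinked in the matrix. Individual genes are switched on at particular stages: col-19 and col-7 are adult collagens, col-17 is made by larvae, and col-2 is known from the dauer larva, the resistant resting stage. Within a moult the genes are expressed in waves, so the level in a whole-worm sample depends on stage and on the position within the moulting cycle. In bulk RNA, fewer cells of a type and less RNA per cell cannot be told apart.

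Of the 151 genes, 127 were described in the deposited table with the nematode cuticle collagen N-terminal domain and 116 with a triple-helix repeat. The genes lay on all chromosomes, with 21 on I, 24 on II, 11 on III, 40 on IV, 29 on V and 26 on X. Gene length as given in the table ran from 465 to 2960 bases, with a median of 1023. The 19 genes that were not tested reached at most 0.0968 to 1.68 FPKM in any library. Just inside the filter were col-135, with 1.25 FPKM in the third highest library, and col-163 with 1.63 FPKM. Just outside were col-148 with 0.991 FPKM and col-83 with 0.980 FPKM. Both col-95 and col-135 passed only through the OP libraries, so their difference from the other groups followed from the filter.

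Reads assigned to genes numbered 17514542 to 21419867 per library, recovered from the FPKM values. The 151 col genes took 3.93% of those reads in FA replicate 3 and 5.93% in OP replicate 3, the extremes of the 9 libraries. Their summed FPKM was 55134, 56972 and 56406 in OP, 57121, 53825 and 44423 in HFD, and 50442, 63050 and 34104 in FA. The sums were close together in OP and spread widely in FA, where replicate 2 was the highest and replicate 3 the lowest of all 9 libraries. FA replicate 3 had the lowest level of the 9 libraries for 72 of 132 tested col genes (54.5%), against 2309 of 14730 genes tested (15.7%). Whether replicates were grown as separate cultures is not stated in the labels, so p-values reflect only the spread among libraries, which may be technical.

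**Figure D1:**
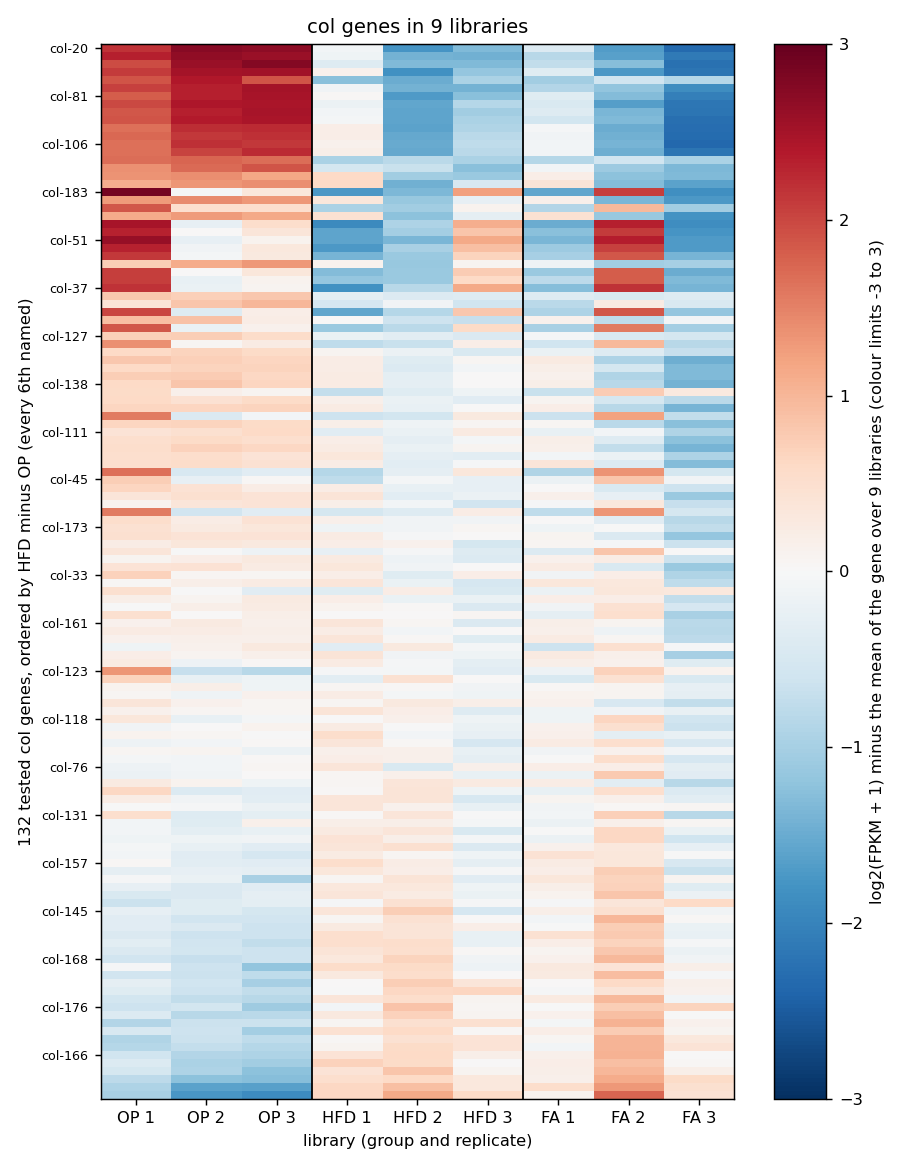
Heat map of the 132 tested col genes (rows, ordered by the difference HFD minus OP) in 9 libraries (columns). Colour gives log2(FPKM + 1) minus the mean of the gene over the 9 libraries, red above and blue below. The top rows are high in all 3 OP libraries, the bottom rows are low in them, and FA replicate 3 is the lowest library in 72 of the 132 rows.

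Levels spanned a wide range. The mean over 9 libraries ran from 0.484 to 2827 FPKM among the tested genes, with a median of 213 FPKM. The 5 most abundant were col-144 (2827 FPKM), col-125, col-73, col-10 and col-166. In the most abundant, col-144, the level was 1979, 1467 and 1490 FPKM in OP, 3191, 4237 and 2759 in HFD, and 2857, 4885 and 2580 in FA. All HFD and FA libraries of col-144 were above the OP libraries. The difference HFD minus OP was 1.04 on the log2(FPKM + 1) scale (SE 0.29) and did not pass the test (limma, adjusted p = 0.0566). In FA against OP it was 1.02 and passed (adjusted p = 0.0386), but not when FA replicate 2, HFD replicate 1 or any OP library was left out, with adjusted p up to 0.156. For col-125 the level was 2250, 1986 and 2128 FPKM in OP, 3358, 3339 and 2470 in HFD, and 3037, 4319 and 2088 in FA. The FA and OP libraries of col-125 overlapped, and neither difference from OP was called.

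The first comparison asked how the high-fat condition differed from the control. Of the 132 tested col genes, 22 fell and 14 rose in HFD relative to OP (limma on log2(FPKM + 1), with a Benjamini-Hochberg threshold of 0.05 across the whole table). The 22 include col-95 and col-135, whose fall followed from the filter. The largest decrease was that of col-20, from 931 ± 192 FPKM in OP to 85.2 ± 54.9 FPKM in HFD (SD, n = 3 each). The largest increase was that of col-41, from 96.8 ± 35.5 to 473 ± 106 FPKM (SD, n = 3 each). Over all genes tested, 7.35% were called, 2.74% higher and 4.62% lower, against 27.3% of the col genes, 10.6% higher and 16.7% lower. The median difference of the col genes was -0.28 on the log2 scale, against 0.01 for all genes tested. All 3 HFD libraries lay below all 3 OP libraries in 45 col genes and above them in 27, against 16.6% and 12.8% of all genes tested. Fold changes on the log2(FPKM + 1) scale understate the change of genes near 1 FPKM.

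The 10 largest decreases were in col-20, col-7, col-179, col-178, col-101, col-62, col-81, col-124, col-129 and col-139. Their differences ran from -3.60 to -3.11 on the log2 scale, and each was called in all 9 fits that left out 1 library. The level of col-20 was 710, 1057 and 1025 FPKM in OP, and 148, 45.5 and 62.2 FPKM in HFD. The groups were far apart, HFD replicate 1 being the highest of its group, and the difference was -3.60 (SE 0.49, limma adjusted p = 0.00267). The adult collagen gene col-7 had 81.9, 104.2 and 98.2 FPKM in OP, and 14.2, 5.20 and 5.11 FPKM in HFD. Its difference was -3.52 (SE 0.37, limma adjusted p = 0.000674), again with HFD replicate 1 above the other HFD libraries. The most abundant of the 10 in OP was col-124, with 1211, 1642 and 1681 FPKM, which stood at 273, 103 and 169 FPKM in HFD. Its difference was -3.14 (SE 0.43, limma adjusted p = 0.00264). The lowest adjusted p of all col genes was that of col-101, which had 29.6, 42.7 and 29.6 FPKM in OP and 2.49, 1.93 and 3.25 FPKM in HFD. Its difference was -3.29 (SE 0.20, limma adjusted p = 2.88e-05). The gene overlaps drl-1, a kinase gene, whose mean was 3.36 FPKM in OP and 2.95 FPKM in HFD. Because no source used here gives the strand setting of the counting, reads from overlapping genes may not be separated.

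Among the other 12 genes that fell, col-181, col-122, col-106 and col-184 were high in OP. The level of col-181 was 764, 1127 and 1148 FPKM in OP and 277, 79.3 and 129 FPKM in HFD. For col-122 it was 1053, 1382 and 1454 FPKM in OP and 363, 109 and 182 FPKM in HFD. These 4 genes changed by -2.81 to -2.69, with adjusted p-values of 0.0134 to 0.0143 (limma). Each lost its call when HFD replicate 2 or either of OP replicates 2 and 3 was left out, where the highest adjusted p was 0.0629 to 0.0714. At lower levels col-96 fell from 17.1, 21.7 and 24.9 FPKM in OP to 3.86, 3.37 and 1.92 FPKM in HFD, a difference of -2.47 (SE 0.31, limma adjusted p = 0.00202). Its neighbour col-95 had 5.11 to 5.49 FPKM in OP and at most 0.0963 FPKM in HFD, and passed the filter only through OP. A smaller change was seen in col-80, which had 527, 699 and 780 FPKM in OP and 275, 367 and 259 FPKM in HFD, a difference of -1.15 (SE 0.27, limma adjusted p = 0.0295), lost without HFD replicate 1, 2 or 3 or OP replicate 2 or 3 (adjusted p up to 0.122). The others were col-137, col-152, col-135, col-127 and col-150, of which col-135, like col-95, passed the filter only through OP. The genes col-137 and col-152 were nearest the threshold on the called side, with adjusted p-values of 0.0449 and 0.0418 (limma). Both, and col-127 and col-150, lost their call when some single library was left out, with adjusted p-values of up to 0.161 for col-137, 0.147 for col-152, 0.0667 for col-127 (OP replicate 2) and 0.0935 for col-150. On the other side were col-60 (adjusted p = 0.0521) and col-176 (adjusted p = 0.0524).

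The replicates of these 22 genes were ordered alike. HFD replicate 1 was the highest HFD library in 19 of them, and OP replicate 1 the lowest OP library in 16. HFD replicate 1 was also the highest HFD library in 70 of the 132 tested col genes, against 4995 of the 14730 genes tested in all. OP replicate 1 was the lowest OP library in 42 of the 132 and 6039 of the 14730. Leaving out OP replicate 2, OP replicate 3 or HFD replicate 2 lowered the count of col genes that fell from 22 to 11, 12 and 14.

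**Figure D2:**
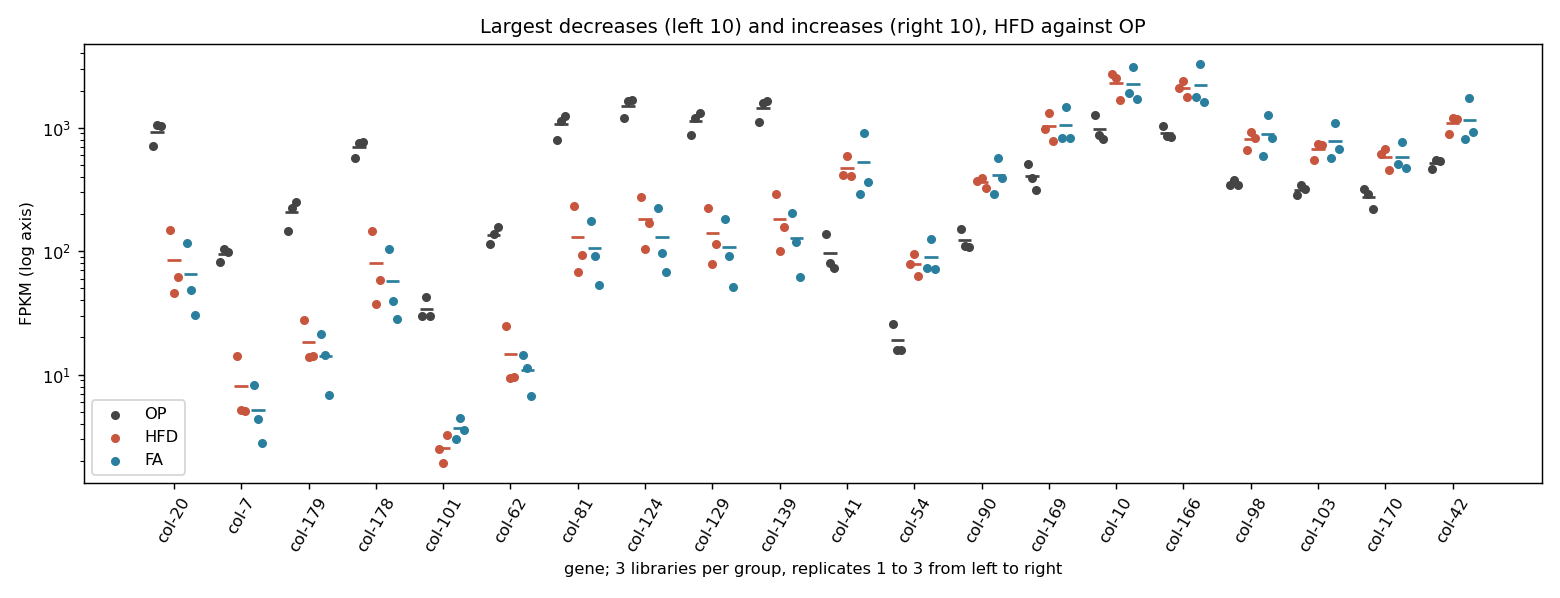
FPKM (log axis) in every library of the 10 col genes with the largest decrease (left) and the 10 with the largest increase (right) in HFD against OP. Points are libraries, coloured by group, and short lines are group means. In the left 10 the OP points stand above all HFD and FA points, and in the right 10 they stand below them.

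The 14 genes that rose were col-41, col-54, col-90, col-169, col-10, col-166, col-98, col-103, col-170, col-42, col-117, col-128, col-46 and col-3. The largest change was that of col-41, with 137.6, 79.7 and 73.1 FPKM in OP and 416, 595 and 407 FPKM in HFD. The groups did not overlap, OP replicate 1 was the highest control, and the difference was 2.31 (SE 0.39, limma adjusted p = 0.00787). Next came col-54, with 25.8, 15.9 and 15.7 FPKM in OP and 78.4, 94.2 and 62.6 FPKM in HFD, a difference of 1.996 (SE 0.26, limma adjusted p = 0.00227). For col-90 the level was 152.3, 111 and 108 FPKM in OP and 370, 395 and 328 FPKM in HFD, a difference of 1.57 (SE 0.23, limma adjusted p = 0.00423). These 3 genes kept their call in all 9 fits that left out 1 library.

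The other 11 rose by 0.95 to 1.34 on the log2 scale, and each lost its call when some single library was left out, with highest adjusted p-values of 0.0769 to 0.147 (limma). Among them, col-10, described in the long life of worms with reduced insulin signalling, had 1259, 867 and 818 FPKM in OP and 2704, 2512 and 1685 FPKM in HFD. Its difference was 1.23 (SE 0.29, limma adjusted p = 0.0316, and up to 0.145 without OP replicate 2, OP replicate 3, HFD replicate 1 or HFD replicate 2). The level of col-166 was 1043, 865 and 836 FPKM in OP and 2120, 2409 and 1792 FPKM in HFD. The level of col-103 was 287, 341 and 317 FPKM in OP and 550, 742 and 719 FPKM in HFD. The gene col-103 overlaps gst-40, whose mean was 2.76 FPKM in OP and 17.03 FPKM in HFD and which itself rose (difference 2.15, adjusted p = 0.0237). The count of genes that rose went from 14 to 9 without OP replicate 1, to 3 when HFD replicate 2 or either of OP replicates 2 and 3 was left out, and to 7 without HFD replicate 1. When OP replicate 1, HFD replicate 3 and FA replicate 2 were left out together, a choice made after seeing the values, 12 col genes rose and 14 fell.

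In several places neighbouring genes moved together and in others they did not. Of the 151 genes, 45 lay in 19 runs of adjacent col genes. The longest run held col-167, col-168, col-169, col-170 and col-171 on chromosome X (from 6323488 to 6335221, WBcel235). In that run col-169 and col-170 rose by 1.34 and 1.07, col-167 and col-168 had differences of 0.84 and 0.92 that were not called, and col-171 was not tested. On chromosome I, col-7 and its neighbour col-62 both fell, col-62 from 114, 139 and 156 FPKM in OP to 24.97, 9.46 and 9.53 FPKM in HFD. On chromosome X, the adjacent genes col-178 and col-179 both fell, by 3.32 and 3.45 on the log2 scale. On chromosome IV, the adjacent genes col-117 and col-3 both rose, by 1.02 and 0.95. These pairs were picked from the 19 runs because both genes were called in the same direction. Of the genes that moved in these runs, col-169, col-170, col-117 and col-3 lost their call without OP replicate 2 or 3 or HFD replicate 1 or 2 (adjusted p up to 0.147). The calls of col-117 and col-3 were also lost without OP replicate 1.

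On chromosome II the run col-17, col-20 and col-73 (4866436 to 4873129) behaved differently from gene to gene. While col-20 fell, the larval gene col-17 had 955, 887 and 788 FPKM in OP and 1458, 1580 and 1382 FPKM in HFD. All HFD libraries of col-17 were higher, but the difference of 0.75 was not called (SE 0.24, limma adjusted p = 0.0871). In col-73 the level was 2488, 2448 and 2389 FPKM in OP and 2463, 1978 and 2117 FPKM in HFD, overlapping groups with a difference of -0.17 (95% interval -0.73 to 0.40). Other runs were mixed as well. The adjacent genes col-79, col-39 and col-80 had differences of -0.01, 0.53 and -1.15, and only col-80 was called. For col-144, col-145 and col-10 they were 1.04, 0.58 and 1.23, with only col-10 called. None of col-92, col-93 and col-94 was called (0.06, -0.23 and 0.30). The neighbours col-149 and col-150 had opposite signs, 0.93 (not called) and -0.80 (called). The pair col-12 and col-13 on chromosome V, near copies of each other in their proteins, had differences of -0.29 and 0.03, neither called. Reads may be split between such copies, so their values are uncertain.

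Several col genes with a literature of their own did not pass the test in HFD against OP. The level of col-120, another collagen described in long-lived insulin mutants, was 368, 410 and 373 FPKM in OP and 235.2, 72.2 and 140 FPKM in HFD. All HFD libraries were lower, with a wide spread among them (difference -1.51, SE 0.52, limma adjusted p = 0.116). The transmembrane collagen col-99, which is not a cuticle gene, had 8.01, 6.62 and 5.75 FPKM in OP and 10.3, 9.001 and 7.72 FPKM in HFD. Its difference was 0.36 (95% interval -0.02 to 0.75). For col-34, known from the shape of the male rays, the difference was -0.20 (95% interval -0.85 to 0.45). For col-36 it was -0.44 (95% interval -1.79 to 0.90), an interval wide in both directions.

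The second comparison asked how farrerol changed worms of the high-fat condition. None of the 132 tested col genes was called in FA against HFD (limma, adjusted p = 1 for every one), and 5 had an unadjusted p under 0.05. Over all genes tested, 0.00679% were called, which is 1 gene, and 2.5% had an unadjusted p under 0.05. The tests on other settings, voom on recovered reads included, also called 0 col genes. In no col gene were the FA and HFD libraries fully separated, against 1.83% (higher) and 3.27% (lower) of all genes tested. The differences ran from -0.70 to 0.54 on the log2 scale with a median of -0.04. The median was 0.12 without FA replicate 3 and -0.30 without FA replicate 2.

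**Figure D3:**
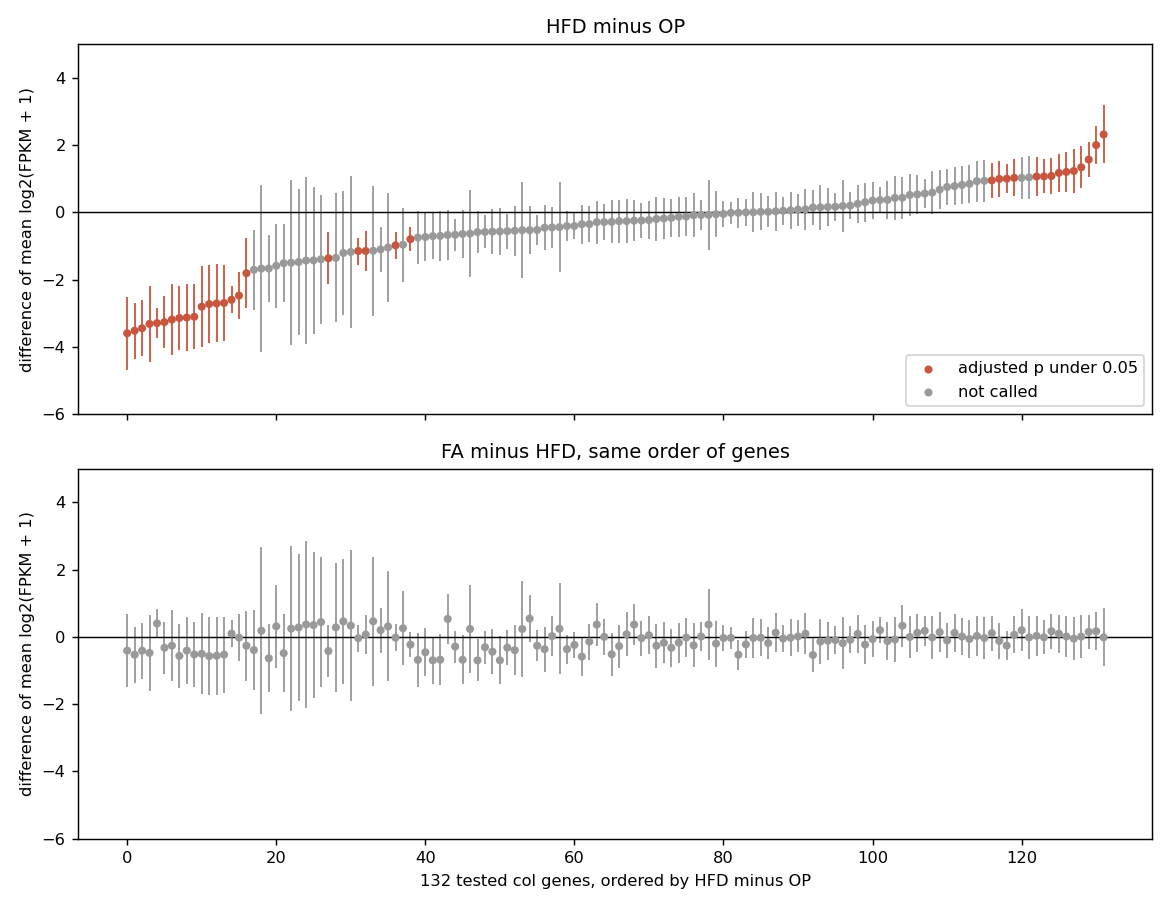
Differences of mean log2(FPKM + 1) with 95% intervals for the 132 tested col genes in the same order, HFD minus OP above and FA minus HFD below. Red marks adjusted p under 0.05. The upper panel has 36 red genes toward its ends, with genes not called among them. The lower panel has none, and its points stay between -0.70 and 0.54.

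The 5 genes with the lowest p were col-79, col-38, col-110, col-49 and col-48. In col-79 the level was 98.4, 116 and 107 FPKM in HFD and 103.98, 68.0 and 56.2 FPKM in FA. FA replicate 1 lay among the HFD libraries and the other FA libraries below them, and the difference was -0.53 (95% interval -0.98 to -0.08, unadjusted). In col-38 the level was 1188, 954 and 1096 FPKM in HFD and 1096, 599 and 442 FPKM in FA. FA replicate 1 was again inside the HFD range, and the difference was -0.70 (95% interval -1.33 to -0.07, unadjusted).

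The genes called in HFD against OP can be followed into FA. In col-7 the FA libraries had 8.31, 4.38 and 2.79 FPKM, overlapping the HFD libraries, and the difference FA minus HFD was -0.53 (95% interval -1.36 to 0.30). In col-20 they had 118, 48.7 and 30.6 FPKM (difference -0.41, 95% interval -1.49 to 0.67). In col-101 they had 3.00, 4.41 and 3.58 FPKM (difference 0.40, 95% interval -0.05 to 0.84). In col-41 the FA libraries spread from 292 to 916 FPKM, and the difference was -0.01 (95% interval -0.88 to 0.85). Without FA replicate 3 the difference of col-20 was 0.016. For each of these genes the interval holds 0. Those of col-7, col-20 and col-41 also allow a change of some size in either direction, while that of col-101 reaches only -0.05 on the lower side.

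The third comparison set the farrerol group against the control. It shares the OP libraries with the first comparison, so the values of both are given side by side. Among the tested col genes, 40 were lower and 19 higher in FA than in OP, 30.3% and 14.4%. The 40 include col-95 and col-135, which passed the filter only through OP. Over all genes tested, 14.6% were called, 4.61% higher and 9.96% lower. The median difference of the col genes was -0.35, against 0.02 for all genes tested. The largest decreases were in col-7 (-4.05 in FA against OP, -3.52 in HFD against OP), col-20 (-4.01 and -3.60), col-179 (-3.86 and -3.45), col-178 (-3.79 and -3.32) and col-124 (-3.71 and -3.14). The largest increases were in col-41 (2.30 and 2.31), col-54 (2.16 and 1.996), col-90 (1.71 and 1.57), col-169 (1.34 and 1.34) and col-98 (1.26 and 1.17). In all 5 decreases and in col-41, col-54, col-90 and col-98 the call in FA against OP held in all 9 fits that left out 1 library, while that of col-169 was lost without OP replicate 2 or 3 (adjusted p up to 0.0540). The count of lower genes went from 40 to 25, 20 and 23 without OP replicate 1, 2 or 3, and to 26 without FA replicate 2 or FA replicate 3. The count of higher genes went from 19 to 7 and 5 without OP replicate 2 or 3, and to 11 without FA replicate 2.

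A further 18 col genes were called lower in FA than in OP and missed the threshold in HFD against OP, 13.6% of the tested col genes against 5.67% of all genes tested. The difference between FA and HFD was not called for any of them. They include several abundant genes of similar level: col-138, col-38, col-71, col-97, col-175 and col-14. The largest fall of the 18 was that of col-60, -2.31 in FA against OP (limma adjusted p = 0.00841). It kept its call in all 9 fits that left out 1 library, and its difference in HFD against OP was -1.67 (adjusted p = 0.0521). In col-138 the level was 1938, 2261 and 2008 FPKM in OP, 1506, 1058 and 1279 FPKM in HFD, and 1447, 719 and 476 FPKM in FA. All HFD and FA libraries were below all OP libraries. The difference from OP was -0.70 in HFD (SE 0.34, limma adjusted p = 0.264) and -1.38 in FA (SE 0.34, limma adjusted p = 0.0223). Without FA replicate 2 or any OP library the FA call was lost (adjusted p up to 0.0874). Of the 9 fits that left out 1 library, col-38 kept its call in 7, col-71 in 5, col-97 and col-175 in 4 each, and col-14 in 1. Their highest adjusted p-values were 0.0573, 0.0912, 0.102, 0.0771 and 0.139 in that order. All 5 lost the call without FA replicate 2 and without OP replicate 2. OP replicates 1 and 3 also decided that of all but col-38, FA replicate 3 those of col-97, col-175 and col-14, and each HFD library that of col-14. In col-49 the level was 953, 974 and 873 FPKM in OP, 682, 469 and 579 FPKM in HFD, and 624, 305 and 227 FPKM in FA. Its difference from OP was -0.71 in HFD (adjusted p = 0.216) and -1.41 in FA (adjusted p = 0.0140, and up to 0.0577 without OP replicate 2 or FA replicate 2). In col-63 the level was 893, 836 and 798 FPKM in OP, 591, 396 and 531 FPKM in HFD, and 612, 268 and 182 FPKM in FA. Its difference from OP was -0.75 in HFD (adjusted p = 0.256) and -1.44 in FA (adjusted p = 0.0236), the latter lost without FA replicate 2, FA replicate 3 or any OP library (adjusted p up to 0.0860). FA replicate 3 was the lowest FA library in all 18 genes, against 78.8% of the tested col genes and 36.3% of all genes tested, and FA replicate 1 was the highest in 16.

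**Figure D4:**
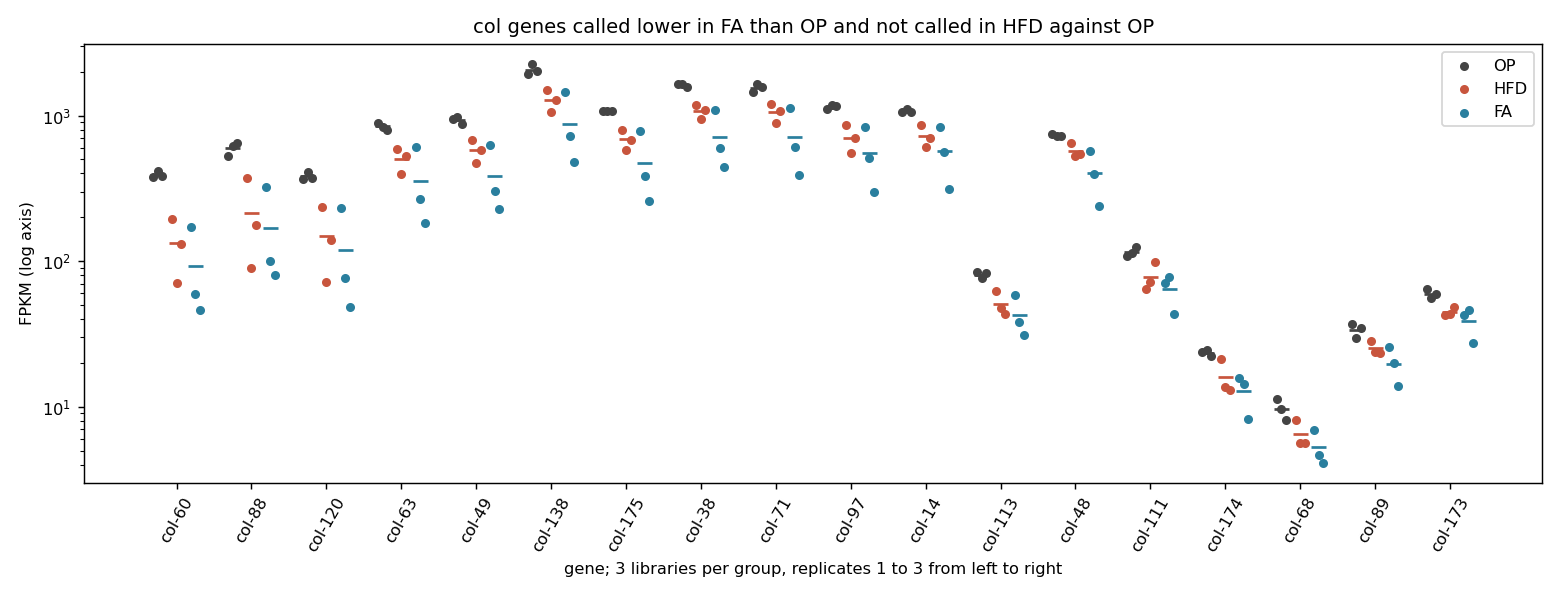
FPKM (log axis) in every library of the 18 col genes called lower in FA than in OP and not called in HFD against OP. Points are libraries and short lines are group means. FA replicate 3 is the lowest FA library in all 18 genes, and FA replicate 1 the highest in 16.

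The 5 genes called higher in FA than in OP and not in HFD against OP (3.79%, against 2.05% of all genes tested) were col-141, col-156, col-168, col-144 and col-176. In col-176 the level was 194, 202 and 140 FPKM in OP, 281, 539 and 307 FPKM in HFD, and 297, 499 and 474 FPKM in FA. Its difference from OP was 1.02 in HFD (adjusted p = 0.0524) and 1.22 in FA (limma adjusted p = 0.0160, and up to 0.0697 without OP replicate 3, FA replicate 2 or FA replicate 3).

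In a further set of col genes, the dauer collagen gene col-2 among them, the same library of each group was the highest. Its level was 96.5, 17.3 and 23.4 FPKM in OP, 5.005, 9.07 and 35.9 FPKM in HFD, and 8.26, 80.8 and 5.08 FPKM in FA. A single library stood far above the rest of each group: OP replicate 1, HFD replicate 3 and FA replicate 2. After these values were seen, genes were counted in which OP replicate 1 and FA replicate 2 each had at least 2 times the level of every other library of their group. There were 16 such col genes (12.1%), against 39 of all 14730 genes tested (0.265%). HFD replicate 3, which the rule did not use, was the highest HFD library in all 16 and in 30 of the 39. No test was made, since the set was chosen on these values. The 16 were col-51, col-183, col-44, col-37, col-72, col-85, col-2, col-158, col-40, col-36, col-50, col-102, col-84, col-185, col-43 and col-35, and none was called in HFD against OP. The rule asks for a wide spread within OP and FA, so the lack of calls follows at least in part from how the genes were chosen. The HFD and OP libraries overlapped in 15 of them, and in col-185 all HFD libraries were below all OP libraries. In col-43 the level was 204, 49.8 and 63.96 FPKM in OP, 44.1, 46.3 and 83.9 FPKM in HFD, and 43.1, 160 and 40.5 FPKM in FA. Outside the 151 genes the count held 23 others, of which 14 were protein-coding, 6 were piRNAs, 2 were pseudogenes and 1 was another noncoding RNA. The protein-coding genes included the transcription factor gene lin-48, the haem transport gene hrg-3 and several genes of the matrix, named after their values were seen. The latter were cut-1, a cuticlin gene described in the dauer cuticle, and grl-20, grl-25, grl-23, grl-9 and grl-19, which encode ground-like domain proteins. In lin-48 and grl-19, HFD replicate 3 was not the highest HFD library. In cut-1 the level was 46.9, 7.82 and 10.7 FPKM in OP, 2.95, 4.84 and 12.5 FPKM in HFD, and 4.56, 31.1 and 2.46 FPKM in FA.

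**Figure D5:**
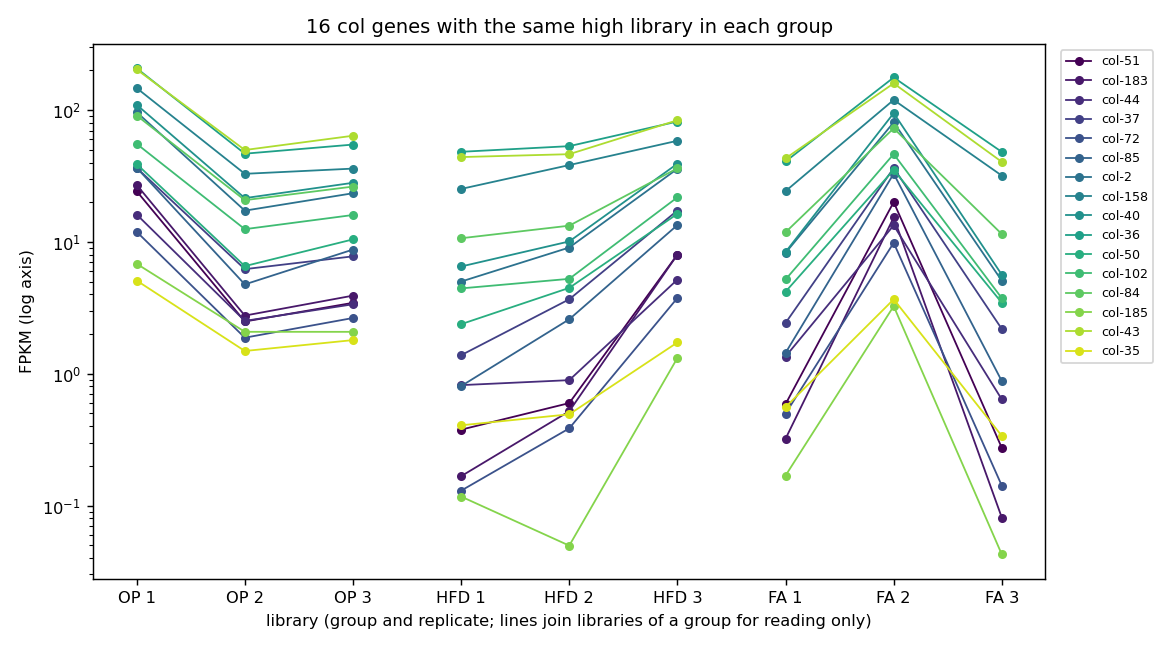
FPKM (log axis) of the 16 col genes in 9 libraries, a colour for each gene, with lines joining the libraries of a group. In every gene OP replicate 1, HFD replicate 3 and FA replicate 2 are the highest of their group.

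Genes of the matrix, of collagen processing, of epidermal and stage regulation and of basement membranes were compared in the same fit. Their lists were chosen with earlier results of these data known. Over all genes tested, 2.74% were higher and 4.62% lower in HFD against OP, and 4.61% and 9.96% in FA against OP. Counts in these short lists are a description beside those shares, with no test of a list. Of 19 tested collagens named for body shape, dpy-2 and dpy-3 rose in HFD against OP and none fell. The level of dpy-3, a collagen of the furrows between the annuli, was 143.3, 110 and 96.4 FPKM in OP and 196, 234 and 236 FPKM in HFD (difference 0.94, SE 0.22, limma adjusted p = 0.0285). In FA against OP, dpy-2 rose and bli-6, a collagen of the blister group, fell. When replicate 2 or 3 of OP or of HFD was left out, no body-shape collagen rose in HFD against OP, and without OP replicate 1 there were 5. Without FA replicate 2 or 3 or OP replicate 2 or 3 no such gene rose or fell in FA against OP. Of 28 genes for collagen processing and crosslinking, phy-3, a prolyl 4-hydroxylase, fell in both comparisons with OP (-0.85 and -1.29) and none rose. Of 37 tested genes for other cuticle and apical matrix proteins, cutl-10, dpy-1, cutl-3, cutl-20, cutl-16 and sym-1 rose in HFD against OP and none fell. That count was 13 without OP replicate 1, 1 without HFD replicate 1, and 0 when HFD replicate 2 or either of OP replicates 2 and 3 was left out. In FA against OP, 8 of the 37 rose and cut-4 fell. The 8 became 14 without OP replicate 1, 2 or 3 without OP replicates 2 or 3, and 4 or 5 without FA replicates 2 or 3, and the call of cut-4 was lost without any of these 5 libraries. Of 29 regulators of moulting and the epidermis, only myrf-1, a transcription factor, rose in HFD against OP, while 2 rose and 3 fell in FA against OP. The count that rose in HFD against OP went to 0 without OP replicate 2, OP replicate 3, FA replicate 2 or any HFD library, and to 3 without OP replicate 1. In FA against OP the count that rose went to 0 without OP replicate 2 or 3 or FA replicate 2 or 3, and to 4 without OP replicate 1, and the count that fell went to 1 without OP replicate 3, FA replicate 2 or FA replicate 3. None of 12 heterochronic genes, which set the order of larval stages, was called in either. Of 12 basement membrane genes, none was called in HFD against OP and pxn-2, a peroxidasin, rose in FA against OP. The 5 set-apart col genes, chosen for their fall, had a median difference of -4.44 in HFD against OP, given as a description with no test.

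Marker lists of other tissues moved with these results in part. The shares over all genes tested were 2.74% higher and 4.62% lower in HFD against OP, and 4.61% and 9.96% in FA against OP. Of 13 oocyte and eggshell markers, 11 fell in HFD against OP and 12 in FA against OP. Their summed FPKM was 967 to 1454 in OP, 459.8 to 592 in HFD and 294 to 532 in FA. Of 35 sperm markers, 17 fell in HFD against OP and 31 in FA against OP, with summed FPKM of 5384 to 7154 in OP, 2839 to 3149 in HFD and 1545 to 3972 in FA. Of 8 tested markers of the hypodermis and seam, 1 rose in HFD against OP and none fell, with summed FPKM of 518 to 597 in OP, 613 to 736 in HFD and 540.0 to 808 in FA. In FA against OP, 2 of the 8 rose. The 8 include dpy-7 and rol-6, cuticle collagens also counted among the body-shape collagens, and neither was called in either comparison with OP. Most of the summed FPKM came from them, with rol-6 alone at 337, 312 and 353 FPKM in OP and 341, 393 and 446 FPKM in HFD. That sum therefore cannot gauge hypodermal content separately from collagen transcripts. None of 6 germline markers was called in HFD against OP and 2 fell in FA against OP, with median differences of -0.32 and -0.37. None of 6 tested markers of intestine and 5 of body wall muscle was called in either comparison with OP. None of 5 pharynx and 8 neuron markers was called in HFD against OP, where all had positive differences (medians 0.42 and 0.23), and 1 of each list rose in FA against OP. No marker of these lists was at 0 in every library. The part of the oocyte and sperm markers in the results on the col genes was not tested.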

How the data were processed

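The authors deposited a table of FPKM values per gene in 9 libraries. Per the labels' protocols, whole-worm RNA was isolated by a chloroform method and prepared with an NEBNext Ultra II kit. The submitters' processing notes name WBcel235 as genome build. No source used here names the aligner, counter or strand setting. FPKM times gene length gave whole multiples of 1 read for 100% of values (tolerance 0.01 read), which gave the reads per library (17514542 to 21419867). Genes with FPKM of at least 1 in 3 libraries were fitted with limma 3.58.1 (R 4.3.3) on log2(FPKM + 1), with a trend, 3 group means and 6 residual degrees of freedom. P-values were two-sided and Benjamini-Hochberg adjusted over 14730 genes, and the fit was tested on simulated data. Figures were drawn with matplotlib 3.10.9. All 151 genes had the same position in the Ensembl 115 annotation. Members, gene lists and tests were chosen with earlier results of these data known. Named genes were those with the largest called changes (10 in each direction in HFD against OP, 5 in FA against OP), the 5 lowest p in FA against HFD, the 5 most abundant, those nearest a threshold, adjacent genes, up to 4 of each companion list with the lowest p, and genes with a literature of their own. Others were named after their values were seen. Sequences were not used here. Alternatives were other pseudocounts, filters, scalings, spread estimates, a replicate block, library weights, voom on recovered reads and leaving out each library. Markers whose gene was not in the table were left out.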

Additional observations from a re-analysis of the deposited data

How the results depend on the processing

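Over all settings the counts in FA against HFD stayed at 0. The col genes higher in HFD than OP, 14 in the main analysis, numbered 4 with no filter on low values, 22 with the spread taken from the 2 groups compared, 25 with library weights, 22 with voom and 3 at an adjusted p under 0.01, and from 3 to 19 with 1 library left out. Those lower, 22, numbered 36 with the spread of the 2 groups, 34 with library weights, 13 at an adjusted p under 0.01, 14 with OP replicate 1, HFD replicate 3 and FA replicate 2 left out together, and from 11 to 29 with 1 library left out. In FA against OP, the 19 higher genes numbered 10 with no filter, 7 with those 3 libraries left out and 5 at an adjusted p under 0.01 (5 to 21 with 1 left out), and the 40 lower genes numbered 24, 19 and 21 (20 to 46). The cause was not tested. All of these settings but the 3 libraries left out together were planned.

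With a replicate block, 21 col genes were higher and 25 lower in HFD than OP, 24 and 39 in FA than OP, and 0 in FA against HFD. Same-numbered libraries of OP and HFD had correlated deviations of 0.0802, -0.0225 and 0.147, those of OP and FA of -0.227, -0.186 and -0.104, and those of HFD and FA of 0.299, -0.0201 and 0.101. Not every library correlated best with its own number. The labels do not say what the numbers mark, and these correlations cannot decide whether they pair the samples.

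The HFD against OP difference of col-13, 0.03, was -0.018 with equal sums and -0.020 with voom, and from -0.17 to 0.26 with 1 library left out. That of col-36, -0.44, was 0.11 with library weights, 0.00370 with those 3 libraries left out and from -0.83 to 0.23 with 1 left out. The FA against HFD difference of col-20, -0.41, was from -0.94 to 0.076 with 1 left out. Of the single-gene values under other settings, 2130 kept direction and side of the threshold, 320 were no longer called, 42 became called and 10 changed sign. The 2130 include genes not called in the main analysis that stayed so. Only called genes could lose a call, so these counts do not give the share of calls that held. The 19 genes left out by the FPKM filter had only 4 to 174 reads over all libraries, so differences in them were not assessed.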

Other observations

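The col genes on chromosome V had a median difference of 0.03 in HFD against OP. Those on the other chromosomes had -0.53 (I), -0.53 (II), -0.26 (III), -0.32 (IV) and -0.21 (X), as a description with no test. The median on V was the value of col-13, which was -0.018 with equal sums and -0.020 with voom. Medians of all genes tested on each chromosome were not computed. Of the tested genes, 2 rose and 2 fell of 17 on I, 0 and 3 of 19 on II, and 2 and 2 of 11 on III. The counts were 4 and 8 of 36 on IV, 2 and 3 of 27 on V, and 4 and 4 of 22 on X. Over all tested col genes, 10.6% rose and 16.7% fell. Of the 36 called genes, 9 overlap another protein-coding gene, as do 51 of all 151 col genes (33.8%). Among the partners, ucr-2.2, a gene of the mitochondrial respiratory chain that overlaps col-41, had a mean of 118 FPKM in OP and 124 FPKM in HFD and was not called (difference 0.07).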
